A study of Mus musculus with 4 samples.

Results

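Bcl11b, Zeb1, Tcf7, Bach2 and Ets1 are genes for transcription factors of T cell development and identity, and each carried at least 1 reproducible binding peak of the RNA helicase DDX5 in mouse Th17 cells. The members were the peaks whose gene name in the authors' peak list was one of these 5 genes, 23 of 900 peaks and 5 of 459 named genes. The genes were picked from the list because they had a peak, so having one is not a finding, and their enrichment is described here without a test. The peaks came from enhanced crosslinking and immunoprecipitation (eCLIP), in which ultraviolet light ties a protein to the RNA it touches, RNase trims the RNA, an antibody pulls the protein down and the attached fragments are sequenced. The series held 4 libraries, 2 of DDX5 immunoprecipitates (IP) and 2 of their inputs, which were not pulled down. All 4 came from wild-type C57BL/6 cells: naive CD4 T cells of female mice, cultured for 72 h with anti-CD3, anti-CD28, IL-6 and TGF-β to become Th17, the helper cells that make interleukin-17. The growth protocol gives an age of 8 weeks, while the series text gives 8 to 10 weeks and 2 mice, without tying a replicate to a mouse. No knockout or untreated group and no IP with a control antibody were among these libraries.

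DDX5 is a DEAD-box protein, an enzyme that uses ATP to open RNA helices, and it is known for roles in splicing, in transcription as a cofactor and in the processing of small RNAs. Introns are present in the nascent transcript and are removed by the spliceosome, which first marks the 5′ splice site at the start of each intron. Among the factors themselves, Bcl11b is a zinc-finger protein that commits thymocytes to the T lineage. Zeb1 is a zinc-finger and homeodomain repressor that binds E-boxes and acts in thymocyte development, and Tcf7 encodes TCF-1, an HMG-box protein of the Wnt pathway that acts with Bcl11b in early T cells. Bach2 is a basic leucine zipper repressor that restrains effector programmes, and Ets1 is a founding member of the ETS family and regulates T cell survival and cytokine genes.

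For every peak the list gives a single log2 fold of IP against input and a single −log10 p, the authors' own values for both replicates together. No value per replicate or library total was used here, so no spread between replicates, no depth and no interval that needs depth can be given, and an SD below is over peaks of 1 gene. The log2 fold is already relative to the RNA in the input, but expression as such was not measured in these files. How far the amount of RNA from a gene bears on whether it has a peak, or on the −log10 p, was not tested. Among Th17 and T cell markers, Rora carried 5 peaks, while Il17a, Il17f, Il23r, Ccr6, Cd4 and Cd3e had none in the list. A peak list does not measure expression, so these counts do not check the cell type.

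The 23 peaks had a median log2 enrichment of 5.74 (53.4-fold), with a range of 4.95 to 6.71, and the median of all 900 peaks was 5.31. The 900 are not a like set, since 766 lay in protein-coding genes, as all members did. The others include 32 peaks of the noncoding Gm26917 with a mean of 3.54. Of the 23, 19 lay above the median of the list and 8 above its upper quartile of 5.84. Zeb1 supplied 6 of those 8 peaks, and the 15 peaks of the other 4 genes supplied 2. The lowest member lay at 4.95 on the log2 scale and the lowest −log10 p of a member was 4.71, so none stood at the authors' minimum of 3 for either value. The width of the members ran from 32 to 131 nt, and its median of 61 nt compares with 65 nt for the whole list. When peaks that touch were joined, 20 sites remained, because Zeb1 alone had touching pieces. The list has a ceiling of 400 for −log10 p, reached by 72 peaks, and 0 of the 23 members were among them.

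**Figure D1:**
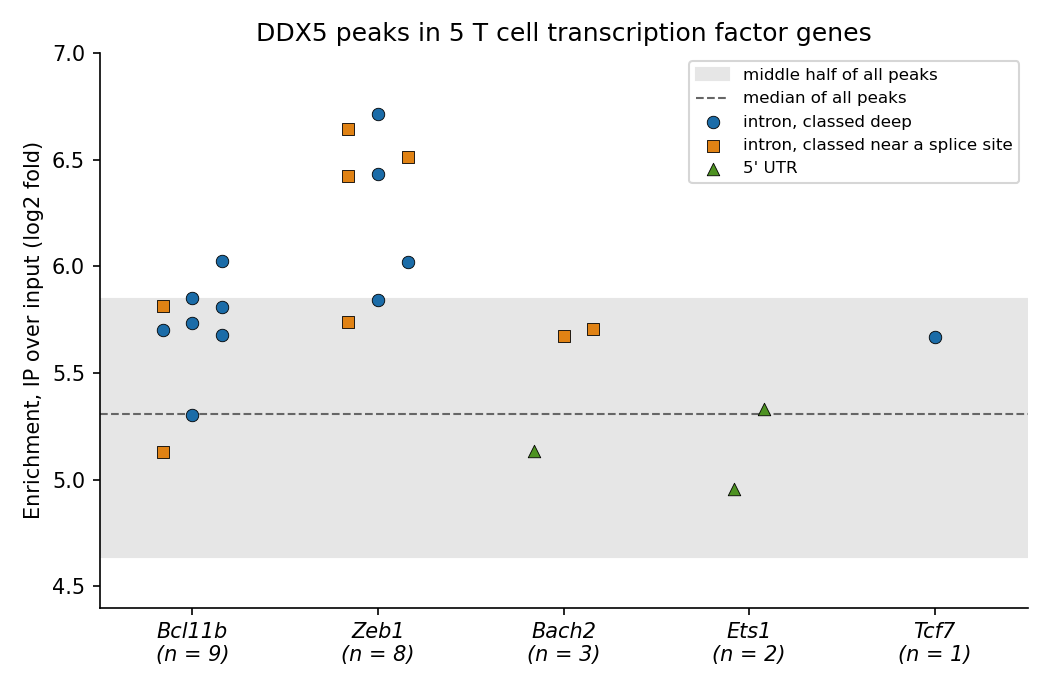
Log2 fold enrichment of IP over input (vertical axis) for each of the 23 peaks, by gene, with 1 point per peak and the shape giving the authors' region class. The grey band spans the quartiles of all 900 peaks (4.64 to 5.84), the dashed line is their median (5.31), and the horizontal spread within a gene only separates points. Zeb1 points reach from 5.74 to 6.71, while 1 of the 15 points of the other genes lies above 6.

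By the authors' region classes, 20 of the 23 peaks lay in introns (87.0%, exact Clopper-Pearson 95% interval 66.4 to 97.2, counting error only), against 513 of the 766 peaks in protein-coding genes (67.0%, which is inside that interval) and 532 of all 900 (59.1%). Of these, 12 were classed as deep in an intron (52.2%, 30.6 to 73.2, against 35.4% of the 766) and 8 as near a splice site (34.8%, 16.4 to 57.3, against 31.6%). The 5′ UTR held 3 peaks (13.0%, 2.78 to 33.6, against 19.5%), and coding exons and 3′ UTRs held none. Peaks of 1 gene are not independent of each other, and 17 of the 23 came from Bcl11b and Zeb1, so the intervals are narrower than they would be for separate genes.

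Bcl11b had 9 peaks on the minus strand of chromosome 12, all in introns. They averaged 5.67 ± 0.28 on the log2 scale (SD over 9 peaks), from 5.13 to 6.02. The SD over all 900 peaks was 0.99, but that mixes 459 genes and all region classes. Among genes with at least 8 peaks, the SD within a gene ran from 0.28 in Bcl11b and 0.37 in Zeb1 to 0.86 in Neat1. Bach2 (0.32 over 3 peaks) and Ets1 (0.27 over 2) had a similar SD to Bcl11b. The peaks stretched over 63.4 kb, which is 67.6% of the length of the gene (93.7 kb in RefSeq). Among the 12 genes with at least 8 peaks, this stretch came after the 69.5 kb of Satb1 and before the 52.8 kb of Ski. In this gene the enrichment thus stayed within 0.90 on the log2 scale while the position moved along most of the transcription unit.

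The Bcl11b peaks fell into those just after an annotated 5′ splice site and those far from one. In the most upstream of the introns that hold a peak, the one at 108002885 to 108002985 lay 100 nt past the 5′ splice site and had the lowest enrichment of the gene, 5.13, with a −log10 p of 18.9. Its neighbour at 108002661 to 108002791 lay 294 nt past the same site and reached 5.81, with a −log10 p of 17.6. The authors classed both as near a splice site. The peak at 107965559 to 107965661 stood at 5.81 with a −log10 p of 22.7, the highest of the 9, and began 10 nt past the 5′ splice site of a 216-nt exon (107965672 to 107965887). Of the 3 Bcl11b transcripts annotated over the peaks, 1 has this exon (ENSMUST00000066060.10). The authors' class for the peak is deep, and in the transcript they name for it the 5′ splice site is 23803 nt away. The peak at 107965069 to 107965117 followed 554 nt past the same exon, at 5.30 on the log2 scale.

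The other 5 Bcl11b peaks lay 4338 nt or more from any 5′ splice site of an intron that holds them. The peak at 107980343 to 107980412, at 5.73, lay 9052 nt past the 366-nt exon that 2 of the 3 transcripts have (107989465 to 107989830). Further along, the peak at 107961206 to 107961333 had the highest enrichment of the gene, 6.02 (65.1-fold), at 4338 nt from a 5′ splice site. The remaining 3 peaks were those at 107958181 to 107958229 (log2 enrichment 5.70), 107952016 to 107952123 (5.85) and 107939627 to 107939710 (5.68). They lay 7442, 13548 and 25961 nt past the 5′ splice site of the 216-nt exon, and their −log10 p values of 7.04, 9.25 and 8.70 were all below the list median of 12.3. So were those of the peak at 107980343 (10.5) and of the peak 554 nt past the 216-nt exon (8.75), and the 4 other Bcl11b peaks lay above the median.

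Zeb1 had 8 peaks on the plus strand of chromosome 18 in 5 sites, and all 8 lay in introns that begin at 1 shared 5′ splice site. They took up 1.34 kb (5591973 to 5593317), or 0.730% of the length of the gene (184 kb). They averaged 6.29 ± 0.37 on the log2 scale (SD over 8 peaks), and this mean was the 26th highest of the 459 genes, against the 123rd for Bcl11b. Of its 8 peaks, 5 exceeded the highest of Bcl11b, and the other 3 fell inside the range of Bcl11b, so the values of the 2 genes overlapped. All 8 had a −log10 p above the list median.

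The first Zeb1 site, 159 nt long, began 5 nt past the 5′ splice site and was listed as 3 touching peaks. Their log2 enrichment was 5.74 at 5591973 to 5592029, 6.42 at 5592030 to 5592074 and 6.64 at 5592075 to 5592131. The first piece, next to the splice site, was the lowest of the 8 and the third piece was among the highest. After a gap of 246 nt, the peak at 5592378 to 5592492 had the highest −log10 p of all members, 78.9, and an enrichment of 6.51. These 4 peaks were classed as near a splice site, and the next 4 as deep, though they followed within the same stretch. The class changed between 410 and 562 nt from the 5′ splice site, which is a step in the label and not a gap in the peaks, since 37 nt separated the peaks on either side of it.

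The Zeb1 peaks classed as deep began with 2 touching pieces at 5592530 to 5592587 (log2 enrichment 5.84) and 5592588 to 5592619 (6.02). The peak at 5592872 to 5592920, which lay 904 nt past the splice site, had the highest enrichment of all 23 members, 6.71 (105-fold). The last peak, at 5593269 to 5593317, had 6.43 and the lowest −log10 p of the gene, 13.7. It overlaps the start of a processed transcript of Zeb1 (ENSMUST00000175739.1) by 10 bases, so by that transcript it is partly exonic. By coordinates, 4 of the 8 peaks also overlap Gm10125, a long noncoding RNA gene of RefSeq that ends at 5592437. The RefSeq table used here gives no strand for it, and the authors' list names Zeb1 alone for these peaks.

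Bach2 had 3 peaks on the plus strand of chromosome 4, within 317 nt of a gene of 348 kb. The peak at 32238988 to 32239023 lay in the 5′ UTR exon of 2 coding transcripts, with a log2 enrichment of 5.13 and a −log10 p of 7.31. The peak at 32239142 to 32239223 lay past the exon, 52 nt into the intron of the coding transcripts and 9 nt into that of a processed transcript, and had 5.71 with a −log10 p of 29.9. The third peak, at 32239257 to 32239304, had 5.67 with a −log10 p of 15.8. Both intron peaks were higher than the exon peak by either value, and the peaks thus straddled the first annotated exon-intron border without a peak over it.

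Ets1 had 2 peaks on the plus strand of chromosome 9, at 32696053 to 32696113 and 32696165 to 32696282. Both were in the 5′ UTR part of the first exon of coding transcripts, and their log2 enrichments of 4.95 and 5.33 had the lowest gene mean of the 5, 5.14. The first had a −log10 p of 4.71, the lowest of all 23 peaks, and the second 14.8. The same bases lie in an intron of a longer Ets1 transcript with a retained intron (ENSMUST00000183879.1), 31333 and 31445 nt from its 5′ splice site. The transcript the authors name for both peaks is this longer one, although their class is 5′ UTR.

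Tcf7 had 1 peak, on the minus strand of chromosome 11 at 52275608 to 52275683. Its log2 enrichment was 5.67 (50.9-fold), close to the mean of Bcl11b, and its −log10 p was 7.04. It lay 6438 nt past the 5′ splice site of a 20497-nt intron shared by both coding transcripts annotated over it, and it was the only peak in that gene. Of the 459 genes in the list, 283 likewise had 1 peak.

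**Figure D2:**
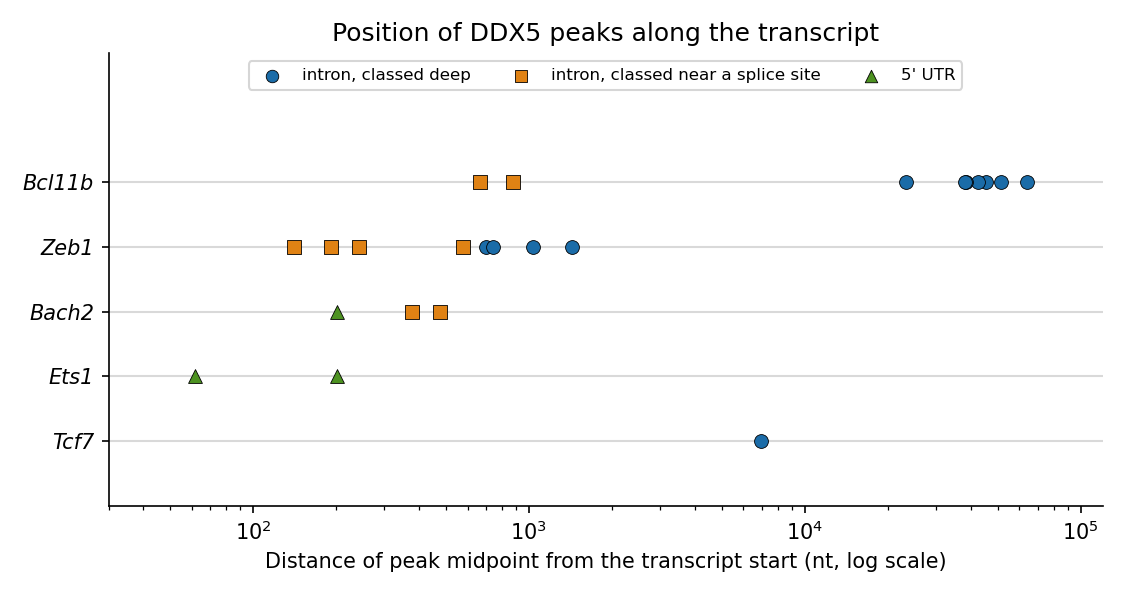
Distance of each peak's midpoint from the start of the longest overlapping protein-coding transcript (horizontal axis, nt, log scale), with 1 point per peak and 1 line per gene, and the shape and colour giving the region class. Bach2, Ets1 and Zeb1 peaks sit close to the start, the single Tcf7 peak lies at 6926 nt, and Bcl11b has 2 peaks close to the start and 7 far from it.

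Across the 5 genes, 11 of the 23 peaks had their midpoint no more than 1 kb from where the longest overlapping transcript begins (47.8%, exact Clopper-Pearson 95% interval 26.8 to 69.4), close to the 391 of 766 peaks in protein-coding genes (51.0%). With the nearest annotated start in place of the longest transcript, the members' share was 15 of 23 (65.2%) and that of the list 69.7%. The pooled share thus lay near that of the list, but its interval is wide, the difference was not tested and the 5 genes differed. To the 11 peaks Zeb1 contributed 6 of its 8, Bach2 all 3 and Bcl11b 2 of its 9, while Tcf7 and Ets1 contributed 0. Both Ets1 peaks joined the count under the nearest start, since the longest Ets1 transcript begins upstream at 32636221. So did the last 2 Zeb1 peaks, 1 at 984.5 nt and the other beside the start of the processed transcript ENSMUST00000175739.1.

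Of the 20 intronic peaks, 19 were nearer to a 5′ than to a 3′ splice site (exact interval 75.1 to 99.9%), as were 446 of 513 intronic peaks in all protein-coding genes (86.9%). Both counts used the shortest distance over the annotated transcripts, and they depend on that choice. In the transcript the authors name for the Bcl11b peak at 107952016, the 5′ splice site lay 37341 nt away and the 3′ splice site 34601 nt. For the Bcl11b peak at 107958181, the farthest 5′ splice site lay 44856 nt away and the 3′ splice site 40766 nt. Within 500 nt of a 3′ splice site lay 0 of the 20 (exact upper limit 16.8%) and 12.5% of the 513. The median distance past the nearest 5′ splice site was 558 nt for the members and 277 nt for the list. The introns that held the members had a median length of 85.7 kb against 23.9 kb for the list when the longest annotated intron over each peak was taken, and 48.8 kb against 15.6 kb with the shortest. These medians are over peaks, so an intron counted again for each peak in it. The longest intron was the same for all 9 Bcl11b peaks (85671 nt) and the same for all 8 Zeb1 peaks (113075 nt). The part of intron length in these distances was not tested. Within 10 nt of a 5′ splice site lay 3 of the 20 peaks (15.0%, 3.21 to 37.9), 1 each in Bcl11b, Zeb1 and Bach2, and 19 of the 513 (3.70%). That limit was chosen after the distances were seen, and the difference was not tested.

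**Figure D3:**
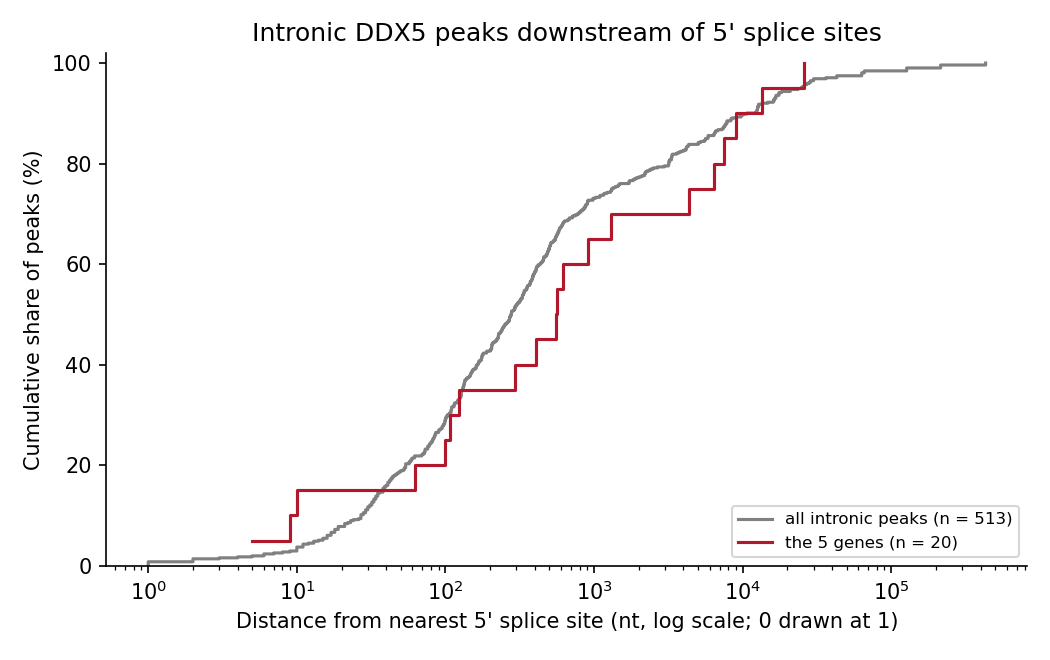
Cumulative share of intronic peaks (vertical axis, %) by distance past the nearest 5′ splice site of an intron that holds the peak (horizontal axis, nt, log scale), for the 20 peaks of the 5 genes and all 513 intronic peaks in protein-coding genes, which include the 20. At 500 nt the members have reached 45.0% and the list 63.2%, and at 1000 nt 65.0% and 73.1%.

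The class of an intronic peak depends on the transcript chosen. Of the 12 member peaks classed as deep, 1 lay within 500 nt of a splice site of some annotated transcript, namely the Bcl11b peak beside the 216-nt exon. Over the whole list this held for 94 of 271 deep peaks (34.7%).

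Fold and −log10 p ranked the members differently. The Zeb1 peak with the highest fold stood 43rd of 900 by fold and 269th by −log10 p, whereas the Zeb1 peak with the highest −log10 p stood 60th by fold and 86th by −log10 p. The Bcl11b and Tcf7 peaks at 107958181 and 52275608 shared exactly the same −log10 p, 7.04, with log2 folds of 5.70 and 5.67. Such ties were frequent, with 14 of the 23 members and 558 of the 828 peaks below the ceiling sharing their −log10 p with another peak.

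**Figure D4:**
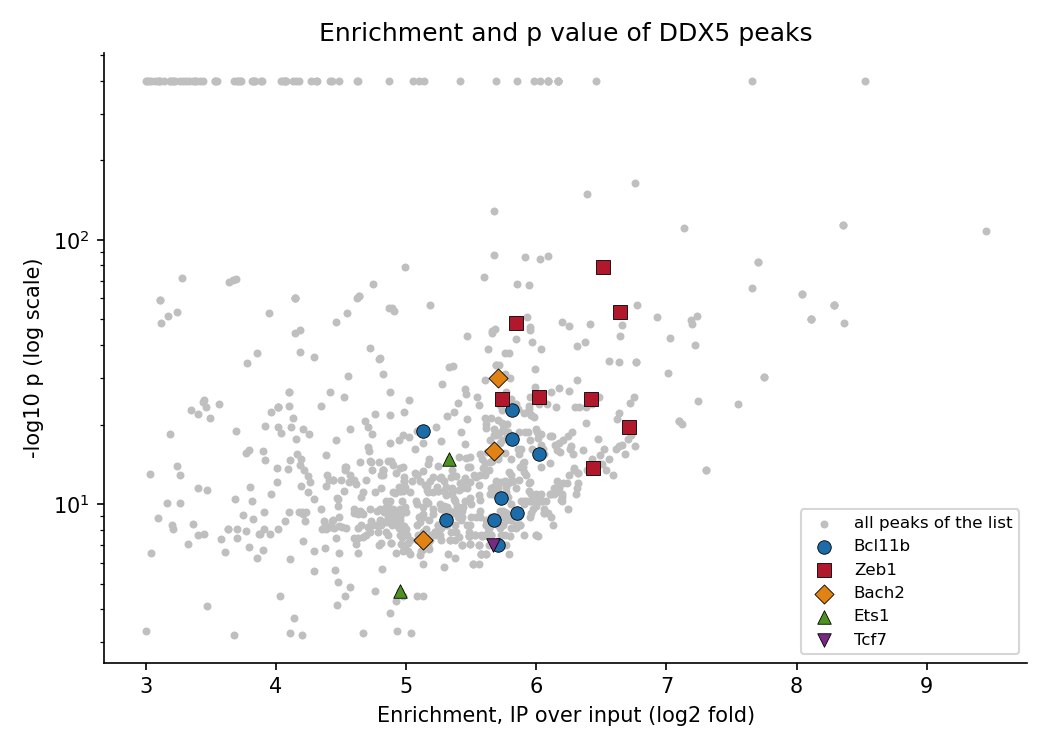
Log2 fold enrichment (horizontal axis) against −log10 p (vertical axis, log scale) for all 900 peaks in grey and the 23 members in colour, with 1 shape per gene. Zeb1 squares lie to the upper right at −log10 p values of 13.7 to 78.9, Bcl11b circles between 7.04 and 22.7, and the row of grey points at 400 is the ceiling.

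The wider group was described with a list of 52 T cell transcription factor genes, of which 9 had a peak, against 1.81% of the 21900 protein-coding genes in the RefSeq table. The list includes the 5 members, whose peaks were known when it was made, so its share of 17.3% supports nothing about them. Of the other 47 genes, 4 had a peak (8.51%), namely Satb1, Rora, Nfatc2 and Foxo1. Those 47 were also listed with earlier results of these data known, so the 8.51% is not an independent share either. These factors are long genes, with a median length of 34.1 kb for those 47 and 17.1 kb for all protein-coding genes, and expression was not available, so the share cannot be read as preference. At least 2 peaks were found in 6 of the 52, against 0.708% of all protein-coding genes, but 4 of the 6 are members, and 2 of the other 47 had as many. Raising the minimum log2 enrichment to 4 left the count of the list at 9, against 1.69% of all protein-coding genes.

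Zeb1 had the highest peak of the 9 genes (6.71), just above the 6.66 of Satb1, a chromatin organiser of T cells with 20 peaks over 69.5 kb. Rora, a nuclear receptor of the Th17 programme, reached 6.49 with 5 peaks within 0.711 kb, and Nfatc2, a calcium-regulated factor of T cell activation, had 1 deep intron peak at 6.15. Bcl11b came next at 6.02, then Bach2 at 5.71, Tcf7 at 5.67 and Ets1 at 5.33. Foxo1, a forkhead factor of T cell quiescence, was lowest with 1 peak near a splice site at 4.80. An SD over peaks is a spread between sites of a gene, not the error of its highest peak. Without a spread between replicates, no step of this order can be called resolved, and the order was not tested. The 9 genes had a median highest peak of 6.02, the 4 of them that are not members 6.32, and protein-coding genes with a peak 5.40. These medians are not a like comparison, because 5 of the 9 were picked for their peaks and the others were listed with earlier results known. The highest of many peaks also tends to exceed that of few. The 9 genes held 50 peaks, while 283 of the 459 genes in the list had 1.

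**Figure D5:**
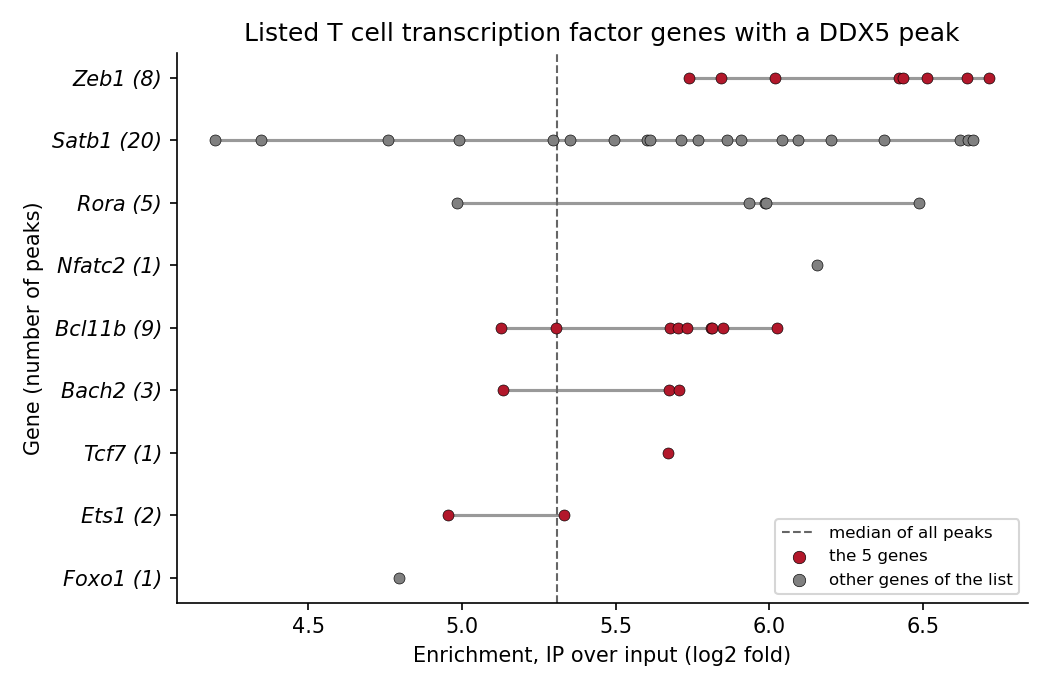
Log2 fold enrichment (horizontal axis) of every peak in the 9 listed T cell transcription factor genes that had one, ordered by highest peak, with the number of peaks in brackets. Each point is 1 peak, lines join the lowest and highest peak of a gene, red marks the 5 genes and grey the others. Satb1 spans 4.20 to 6.66, wider than Zeb1 or Bcl11b.

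The close relatives of the 5 genes were also looked up. Of 7 relatives, namely Bcl11a, Zeb2, Lef1, Tcf7l1, Tcf7l2, Bach1 and Ets2, 0 had a peak. With 1.81% of all protein-coding genes carrying a peak, a count of 0 among 7 is near the background, and their expression is not known from the files.

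Likeness of pattern was measured as the share of a gene's peaks that would have to change region class to match another gene, over the 28 other genes with at least 5 peaks. Nearest to Bcl11b were Hdac7 (distance 0.022, 10 peaks of which 8 deep, mean log2 enrichment 5.52), Anp32b (0.18, 5 peaks) and Ski (0.18, 25 peaks of which 21 deep). Nearest to Zeb1 were Anp32b (0.10, 3 deep and 2 near a splice site), Chd7 (0.13, 8 peaks of which 4 deep, mean 5.87) and Pmepa1 (0.17, 12 peaks). By extent, Chd7 resembled Zeb1 too, with its 8 peaks within 1.07 kb, whereas those of Pmepa1 reached over 21.4 kb.

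The RefSeq promoter table (GRCm38.p6, 250 bases before to 50 after each start) held windows for Bcl11b, Tcf7 and Bach2. None of the 13 peaks of these 3 genes overlapped its own gene's window, and 50 of all 900 peaks (5.56%) overlapped some window on the same strand. The nearest peak lay 380 nt from the Bcl11b window, 6863 nt from the closer of 2 Tcf7 windows and 178 kb from the Bach2 window, which belongs to a start far downstream of the one the Bach2 peaks follow.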

How the data were processed

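DDX5 eCLIP was done on 2 IP and 2 input libraries of Th17 cells. Reads were mapped to mm10 by the authors, and the tools in the submitters' processing notes are STAR 2.4.0i, cutadapt 1.9.1 and SAMtools 1.4.1. Per the deposited settings, each IP was normalised to its own input, replicates were joined by irreproducible discovery rate, and the minimum was 3 for both the log2 fold and the −log10 p. Which peak caller was used is not given in the sources used here. Values deposited as log2 fold and as −log10 p are 1 value per peak, per the file headers. The second deposited file held settings only.

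Peak starts in the list count from 0, and printed positions count from 1 on mm10. A peak counted for each gene in its name, and touching peaks were joined into sites. Distances used the transcripts and introns that the authors' annotation lists for each peak, on the gene's strand. A distance to a splice site runs from the near edge of the peak and covers introns that hold the whole peak. Shares have exact Clopper-Pearson 95% intervals. Gene lengths and promoter windows are from RefSeq GRCm38.p6, and gene coordinates printed from it are on that build, of which mm10 is the UCSC name. No test was run, as the peak list gives 1 value per peak over both replicates and the rule used the peaks. Joining and distances were tested on simulated data. Python 3.11.15, pandas 2.3.3 and scipy 1.17.1 were used.

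The members and lists were chosen with earlier results of these data known. Named genes are the 5 members, listed factors with a peak, and the 3 genes nearest in region class to members with at least 5 peaks. No genome sequence was used here, so peak sequences are not shown. A further marker is not reported here.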

Additional observations from a re-analysis of the deposited data

How the results depend on the processing

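Over 17 alternatives, no count moved by more than 1.5 times, no share left its exact interval and no median moved by more than the SD over the 23 peaks (0.48 on the log2 scale). The number of peaks was 22 at a log2 enrichment of at least 5, which drops 1 Ets1 peak, and also 22 at a −log10 p of at least 5. The 20 sites became 18 when peaks up to 50 nt apart were joined and 16 at 100 nt. The median log2 enrichment was 5.72 over highest peaks of sites and 5.67 over gene means. The intronic share was 85.0% by sites and 90.9% among the 22 peaks with the higher fold minimum of 5. The share within 1 kb of the start ran from 40.0% by sites to 65.2% with the nearest start. No paired analysis was possible because the list joins both replicates into 1 value per peak, and leaving out a replicate could not be run for the same reason. Depth per library is unknown.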
